A study of Mus musculus with 12 samples.

Results

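The 10 genes examined were Spp1, Trem2, Gpnmb, Cd9, Cd63, Fabp5, Lgals3, Apoe, Arg1 and Chil3, a set associated with macrophages of scarred tissue and of alternative activation. They were taken by symbol from a count table of 55453 genes, and all 10 were found and passed the filter on low counts. RNA-Seq had been performed on bulk skin from 12 C57/BL6 mice, split into 4 groups of 3. Wild-type animals received PBS (WT PBS) or bleomycin (WT BLM), and Thy1-knockout animals likewise received PBS (KO PBS) or bleomycin (KO BLM). Skin was harvested at day 21, after daily s.c. injections into the dorsal skin for up to 14 days, with bleomycin at 10 mg/kg/d. For the knockout animals the study's methods give female sex and an age of 8 to 12 weeks, while for the wild-type animals they name no sex or age and call controls littermates. All groups share the C57/BL6 background and the injections themselves. The knockout was in the whole animal and not in a chosen cell type, so that a difference between genotypes is not one of macrophages alone, and in bulk skin fewer cells of a type and less RNA per cell cannot be told apart.

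Scar-associated macrophages are monocyte-derived cells that gather in fibrotic tissue. They take up lipid and cell debris through the receptor TREM2, enlarge their lysosomes and secrete osteopontin, the product of Spp1. Arg1, an arginase, and Chil3, a secreted chitinase-like protein, are classical markers of alternative activation in mice. None of these genes belongs to macrophages alone: in skin Gpnmb is also a melanosomal protein of pigment cells, and Fabp5, Lgals3, Cd9 and Arg1 are also made by keratinocytes.

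Library totals ran from 26473700 to 38890450 counts, and levels are given as CPM, the counts of a gene scaled to a fixed library total, after TMM normalization. Thy1 itself was counted at 45.6 to 96.9 CPM in KO PBS and at 84.7 to 128 CPM in KO BLM, against 104 to 150 CPM in WT PBS and 231 to 416 CPM in WT BLM, and a gene-level count does not show which part of the gene the reads came from. A list of 20 macrophage core genes (such as Csf1r, Adgre1 and C1qa, with none of the 10 genes in it) was detected in all mice. Before any comparison, 2 libraries stood apart. The mean log2 CPM of a list of growing-hair genes was 9.21 to 10.12 in WT PBS and -0.67 to 3.0 in WT BLM, and in KO PBS it was 9.97 in mouse 136 against -1.15 and 2.45 in mice 137 and 139. In KO BLM it was 8.84 in mouse 141 against 4.48 and 5.72 in mice 143 and 144. In WT mice hair growth and bleomycin cannot be told apart, and the log2 fold changes of the 10 genes and the list counts in KO mice are therefore also given without mice 136 and 141.

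Compared per kilobase of the principal transcript, the 10 genes spanned a wide range of levels. In WT PBS skin the mean was 2300 CPM per kb for Apoe, which encodes the lipid carrier apolipoprotein E, 829 for the fatty acid binding protein gene Fabp5, 370 for Lgals3 (galectin-3), 344 for the tetraspanin gene Cd9, 157 for Gpnmb, 122 for the lysosomal tetraspanin gene Cd63 and 36.5 for Arg1. Trem2 followed at 2.60, Spp1 at 1.62 and Chil3 at 0.025 CPM per kb. The ranges over mice met for the neighbours Lgals3 and Cd9 and for Trem2 and Spp1, and not for the other neighbours. In WT BLM skin Spp1, Gpnmb, Trem2 and Arg1 lay together, at 55.5, 45.6, 37.7 and 28.1 CPM per kb with overlapping ranges, and Apoe remained highest at 2342 CPM per kb.

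In WT mice, Spp1, Trem2, Chil3 and Cd63 rose with bleomycin and Cd9 fell. Thus 4 of the 10 genes were called higher (edgeR's quasi-likelihood test, Benjamini-Hochberg adjusted p under 0.05 over 18311 genes), where 19.8% of all genes tested were called higher, and 1 was called lower, where 14.1% were. The other 5 did not pass the test. In KO mice none of the 10 passed, where 0.306% of all genes did, while 6 had an unadjusted p under 0.05, where 20% of all genes had. DESeq2 called 3 in KO mice (Trem2, Cd63 and Chil3), where it called 6.14% of genes. It gave no adjusted p for Spp1 in WT mice, so its lack of a call for Spp1 in KO mice is not read as a negative result.

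**Figure D1:**
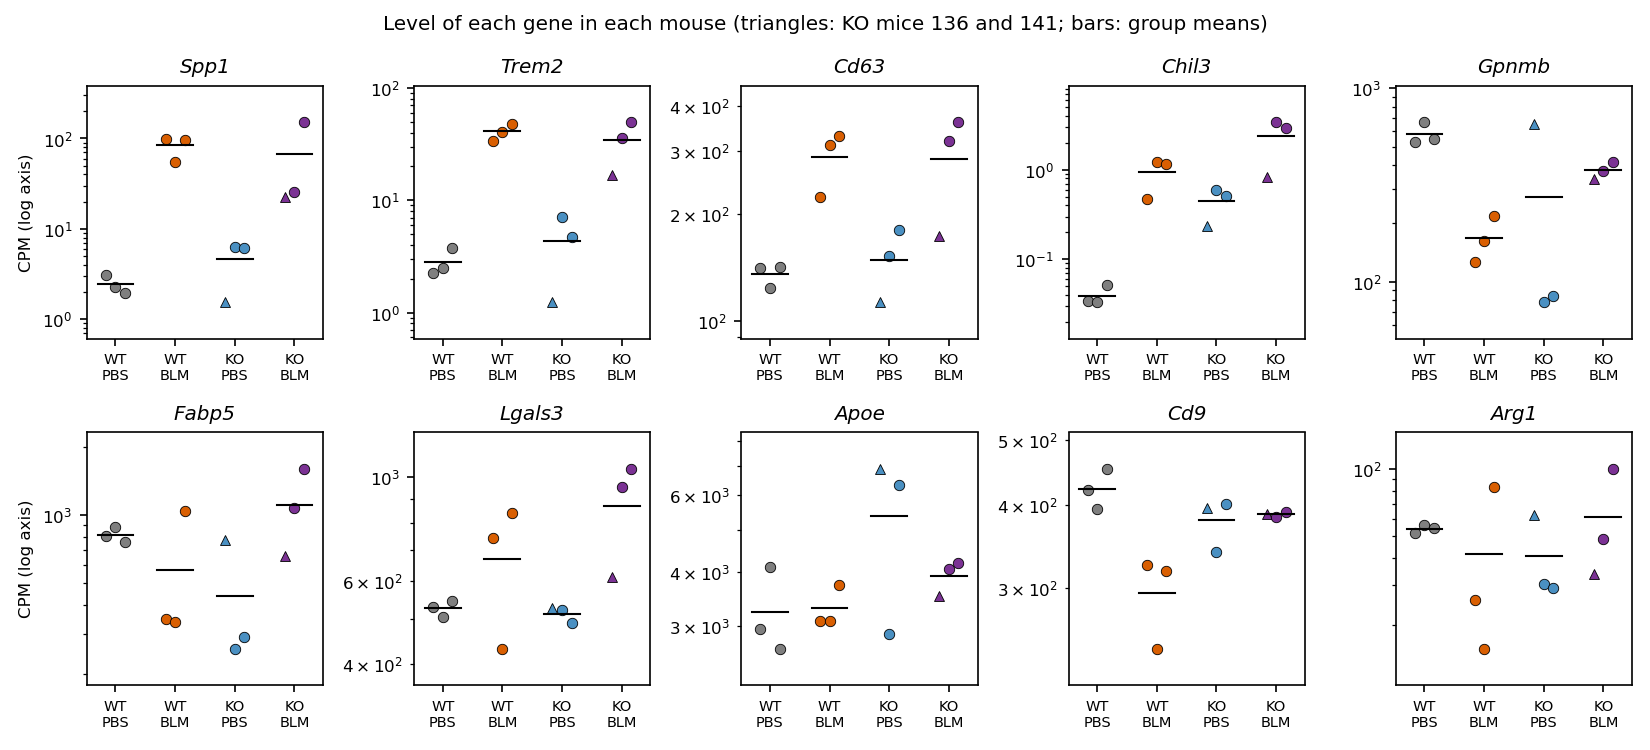
CPM of each of the 10 genes in each of the 12 mice, on a log axis of its own for each gene, with the group mean as a bar and KO mice 136 and 141 as triangles. For Spp1 the WT BLM mice sit between 54.6 and 99.1 CPM, above the WT PBS mice at 1.94 to 3.11 CPM, while for Gpnmb the WT BLM mice, at 127 to 218 CPM, sit below the WT PBS mice.

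Spp1 (chr5:104435118-104441050, plus strand), placed like the other genes in GENCODE M21 on GRCm38, encodes osteopontin, a secreted matrix protein that binds integrins and CD44. Its level was 3.11, 2.27 and 1.94 CPM in the WT PBS mice and 99.1, 54.6 and 97.2 CPM in the WT BLM mice. The groups lay far apart, and the log2 fold change was 5.10 ± 0.85 (SE, adjusted p = 0.0050). In KO PBS mice 136, 137 and 139 Spp1 was at 1.53, 6.29 and 6.20 CPM, and in KO BLM mice 141, 143 and 144 at 22.5, 25.9 and 152 CPM. The KO groups did not overlap either, although mouse 144 alone was at a level above that of any WT mouse, and the log2 fold change was 3.83 ± 0.80 (adjusted p = 0.072). It passed the test without mouse 136 (3.42, adjusted p = 0.028) and without mouse 141 (4.23, adjusted p = 0.024). Without mouse 144 it was 2.37.

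Trem2 (chr17:48346401-48354147, plus strand) encodes the lipid-sensing receptor that signals through the adaptor TYROBP. It was at 2.23, 2.50 and 3.74 CPM in WT PBS and at 34.0, 40.9 and 48.2 CPM in WT BLM. No mouse of either group came near the other group, and the log2 fold change was 3.86 ± 0.60 (adjusted p = 0.0044). In KO PBS the values were 1.23, 7.11 and 4.71 CPM, and in KO BLM 16.7, 36.0 and 49.7 CPM. Every KO BLM mouse lay above every KO PBS mouse, with mice 136 and 141 the lowest of their groups, and the log2 fold change was 2.97 ± 0.57 (adjusted p = 0.058). It passed without mouse 136 (2.53, adjusted p = 0.012) and without mouse 141 (3.28, adjusted p = 0.021).

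Chil3 (chr3:106147554-106167564, minus strand) was rare in all groups. The 3 WT PBS libraries held 1, 1 and 2 counts and the 3 WT BLM libraries 12, 37 and 35 counts. Summed over the mice and scaled by library size, this is a ratio of 24.0 (exact 95% interval 9.05 to 90.3, for counting error only), and the fit across all genes called it higher (adjusted p = 0.0054). KO PBS mice held 7, 21 and 17 counts and KO BLM mice 27, 110 and 82 counts. The KO groups did not overlap, at 0.233 to 0.600 CPM against 0.826 to 3.41 CPM, and the log2 fold change was 2.39 ± 0.56 (adjusted p = 0.096). It passed without mouse 136 (2.09, adjusted p = 0.047) and without mouse 141 (2.79, adjusted p = 0.020). The near-identical neighbour Chil4 had 17 counts in WT BLM, 40 in KO BLM and 1 in the PBS groups together, and reads shared by both genes could have been counted for either.

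Cd63 (chr10:128900989-128912822, plus strand) encodes a tetraspanin of lysosomes and exosomes. It was at 141, 124 and 142 CPM in WT PBS and at 223, 312 and 331 CPM in WT BLM. All WT BLM mice were higher, by a log2 fold change of 1.09 ± 0.27 (adjusted p = 0.017). The call rested on single mice: the adjusted p was 0.053 without WT BLM mouse 147 and 0.056, 0.070 and 0.050 without WT PBS mice 159, 160 and 161, with log2 fold changes of 0.96 to 1.13. KO PBS mice were at 113, 152 and 180 CPM and KO BLM mice at 173, 319 and 361 CPM. Mouse 141 fell within the range of the KO PBS mice, and the log2 fold change of 0.94 ± 0.27 did not pass in the fit over all 12 mice (adjusted p = 0.14). It passed in DESeq2 on all mice (0.91, adjusted p = 0.039) and in edgeR without mouse 141 (1.19, adjusted p = 0.029). With any other single mouse left out Cd63 did not pass in KO mice (adjusted p up to 0.48).

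The 4 genes that rose in WT mice are shown with the 250 bases before their RefSeq start (GRCm38.p6, read on the strand of the gene), so that the promoters of members that moved together can be compared. Capitals mark matches on either strand to the motifs searched, GAGGAAG for PU.1, TGANTCA for AP-1, TATAAA for the TATA box, CACGTG for the E-box and TCATGTG for the MITF M-box.
Spp1 (chr5:104434861-104435110, plus strand): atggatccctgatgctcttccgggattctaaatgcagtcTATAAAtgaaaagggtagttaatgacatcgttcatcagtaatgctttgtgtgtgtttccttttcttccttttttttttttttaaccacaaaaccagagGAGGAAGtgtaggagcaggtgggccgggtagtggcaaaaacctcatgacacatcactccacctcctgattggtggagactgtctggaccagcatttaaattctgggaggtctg
Trem2 (chr17:48346151-48346400, plus strand): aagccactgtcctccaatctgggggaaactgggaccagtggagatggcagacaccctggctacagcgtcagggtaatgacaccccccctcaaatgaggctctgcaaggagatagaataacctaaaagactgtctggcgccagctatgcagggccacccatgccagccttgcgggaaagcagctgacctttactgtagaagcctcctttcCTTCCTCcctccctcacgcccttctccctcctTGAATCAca
Cd63 (chr10:128909095-128909344, plus strand): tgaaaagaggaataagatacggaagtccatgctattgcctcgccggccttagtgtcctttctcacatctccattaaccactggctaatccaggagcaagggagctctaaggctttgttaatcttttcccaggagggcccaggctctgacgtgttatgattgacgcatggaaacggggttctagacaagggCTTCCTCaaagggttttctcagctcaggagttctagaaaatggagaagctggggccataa
Chil3 (chr3:106167565-106167814, minus strand): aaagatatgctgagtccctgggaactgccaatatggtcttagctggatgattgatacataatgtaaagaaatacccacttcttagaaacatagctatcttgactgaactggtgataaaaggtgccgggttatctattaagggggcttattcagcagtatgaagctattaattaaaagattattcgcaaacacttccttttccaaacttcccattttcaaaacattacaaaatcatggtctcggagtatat
The PU.1 letters (PU.1 is the transcription factor that defines the myeloid lineage) were found in Spp1, 113 bases before the start, and on the opposite strand in Trem2 and Cd63, 41 and 60 bases before it. The letters searched for AP-1, in which N takes any base, stood in Trem2 as TGAATCA, 9 bases before the start. The TATA letters stood in Spp1, 211 bases before its start. Of the 8 genes of the set with a window, 3 held the PU.1 letters, 1 the AP-1 letters and 1 the TATA letters, and 0 held those of the E-box or the M-box. Among 32851 RefSeq windows of the same length the shares were 10.6% for PU.1, 6.75% for AP-1, 12.4% for TATA, 6.02% for the E-box and 3.25% for the M-box. A match is a run of letters and no evidence of binding. Fabp5 and Arg1 had no window.

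Spp1, Trem2 and Chil3 were higher in every bleomycin-treated mouse than in every PBS-treated mouse of the same genotype, in WT and in KO alike. That held for 3 of the 10 genes and for 5.03% of all genes tested. The macrophage core list moved in the same direction. Its mean log2 CPM was 3.93 to 4.69 in WT PBS and 6.16 to 6.81 in WT BLM, and 18 of its 20 genes were called higher, with a median log2 fold change of 2.36 where the median over all genes was 0.02. In KO PBS the list was at 3.82 in mouse 136 and at 5.75 and 5.37 in mice 137 and 139, and in KO BLM it was at 5.67 to 6.07, with 0 of 20 genes called, 18 with a positive log2 fold change and a median of 0.67. Without mice 136 and 141, 5 of the 20 were called higher and 1 lower, where 13.5% of all genes were called higher and 8.73% lower, and the median was 0.52.

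Trem2 and Spp1 were therefore also set against the list within each mouse, as log2 CPM minus the mean log2 CPM of the list. For Trem2 the difference was -2.73, -2.97 and -2.76 in WT PBS and -1.06, -1.32 and -1.21 in WT BLM, and -3.45, -2.91 and -3.11 in KO PBS and -1.61, -0.90 and -0.41 in KO BLM. Bleomycin-treated mice lay above PBS-treated mice in both genotypes, with mice 136 and 141 the lowest of their own groups. For Spp1 the difference was -2.26, -3.11 and -3.69 in WT PBS and 0.48, -0.90 and -0.21 in WT BLM, and -3.15, -3.09 and -2.72 in KO PBS and -1.18, -1.38 and 1.20 in KO BLM. Again no group met its counterpart. These were 2 of the 10 genes, and 0.694% of all genes tested separated in this way in both genotypes. Chil3 separated in WT mice and overlapped in KO mice. Cd63 was lower relative to the list in WT BLM (1.56 to 1.65) than in WT PBS (2.46 to 3.21). With the list as a covariate in the fit across all genes, Trem2 was called in KO mice (log2 fold change 2.02 ± 0.32, adjusted p = 0.023), as 1 of the 10 genes where 4.40% of all genes were called. In WT mice the same fit called 0 of the 10 and 0.197% of all genes, with 1.05 ± 0.50 for Trem2 and 3.26 ± 1.42 for Spp1.

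**Figure D2:**
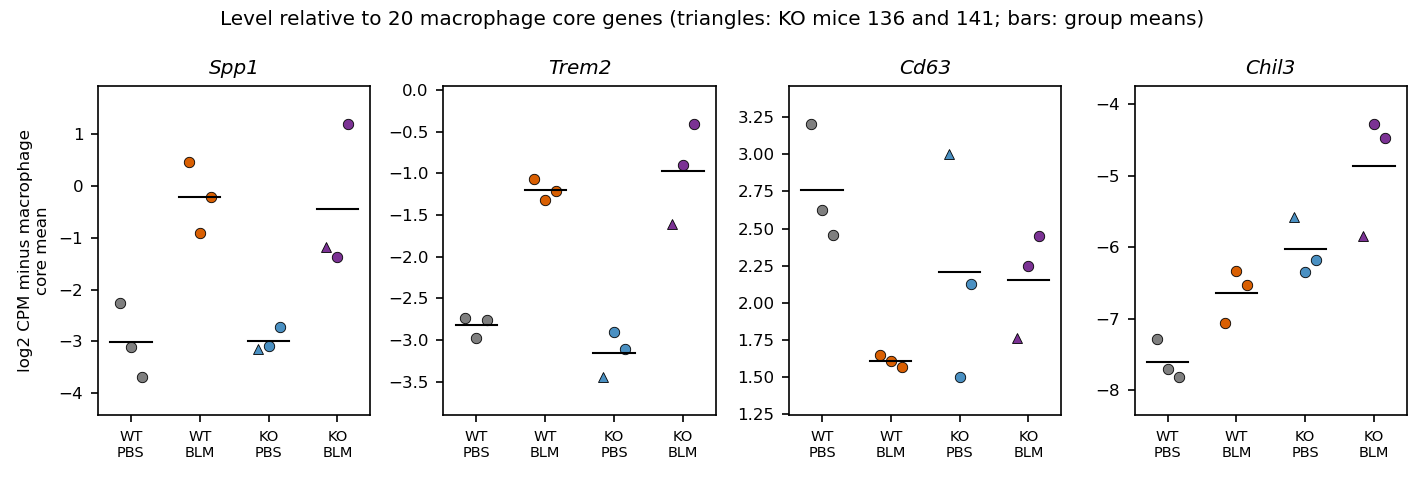
Log2 CPM of Spp1, Trem2, Cd63 and Chil3 minus the mean log2 CPM of the 20 macrophage core genes in the same mouse, for each mouse, with group means as bars and KO mice 136 and 141 as triangles. For Trem2 the bleomycin-treated mice sit between -1.61 and -0.41 and the PBS-treated mice between -3.45 and -2.73.

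Gpnmb and Fabp5 did not follow the macrophage list. Gpnmb (chr6:49036546-49070929, plus strand) encodes a glycoprotein of melanosomes and of lipid-laden macrophages. It was at 530, 669 and 544 CPM in WT PBS and at 127, 162 and 218 CPM in WT BLM. All WT BLM mice were thus lower, by a log2 fold change of -1.78 ± 0.69 that did not pass in the fit over all 12 mice (adjusted p = 0.067). It passed when any one of the KO PBS mice 136, 137 and 139 was left out (adjusted p = 0.00023, 0.036 and 0.043, log2 fold change -1.79 to -1.78). It also passed in the fit on only the 2 WT groups (-1.78 ± 0.23, adjusted p = 0.0012), where 44.6% of all genes were called. In KO PBS it was at 655 CPM in mouse 136 and at 78.0 and 84.4 CPM in mice 137 and 139, and in KO BLM at 339, 372 and 418 CPM. Mouse 136 was at the WT PBS level while mice 137 and 139 were below every other mouse. The log2 fold change in KO mice was 0.46 ± 0.67, and without mouse 136 it was 2.21 (adjusted p = 0.0052).

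A list of 12 melanocyte genes (such as Tyr, Dct and Pmel) moved with Gpnmb over the 12 mice (Pearson's r = 0.925), though not within KO BLM. The mean log2 CPM of the list was 5.69 to 6.05 in WT PBS, 1.20 to 2.21 in WT BLM, 4.62 in mouse 136, 1.42 and 1.19 in mice 137 and 139, 5.08 in mouse 141 and 3.96 and 3.95 in mice 143 and 144. Mouse 141 was thus the highest of KO BLM on the list, while its Gpnmb was the lowest (339 against 372 and 418 CPM). In WT mice 11 of the 12 melanocyte genes were called lower and 0 higher, where 14.1% and 19.8% of all genes were. In KO mice 0 were called, and all 12 had a positive log2 fold change, with a median of 0.99. With mice 136 and 141 left out, 11 of the 12 were called higher, where 13.5% of all genes were, with a median of 2.72. Mitf, a transcription factor of pigment cells, is not in this list but in the lysosome and MITF-TFE list. It fell in WT mice as well (log2 fold change -1.85 ± 0.36, adjusted p = 0.0074), as the 1 gene of its list called lower, where 10 of 20 were called higher. How much of the Gpnmb counts came from pigment cells was not tested.

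Fabp5 (chr3:10012548-10016607, plus strand) was at 806, 886 and 763 CPM in WT PBS and at 349, 338 and 1037 CPM in WT BLM. Mouse 147 was higher than all WT PBS mice and the other two were lower, and the log2 fold change was -0.51 ± 0.54 (adjusted p = 0.47). In KO PBS it was at 775 CPM in mouse 136 and at 257 and 290 CPM in mice 137 and 139, and in KO BLM at 662, 1073 and 1601 CPM. The KO groups overlapped, in that mouse 136 lay above mouse 141. The log2 fold change was 1.33 ± 0.54 (adjusted p = 0.21), and 2.02 without mouse 136 (adjusted p = 0.036). Fabp4, the paralog of adipocytes, was at 446 to 590 CPM in WT PBS and 95.4 to 563 CPM in WT BLM, with no call in either genotype.

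**Figure D3:**
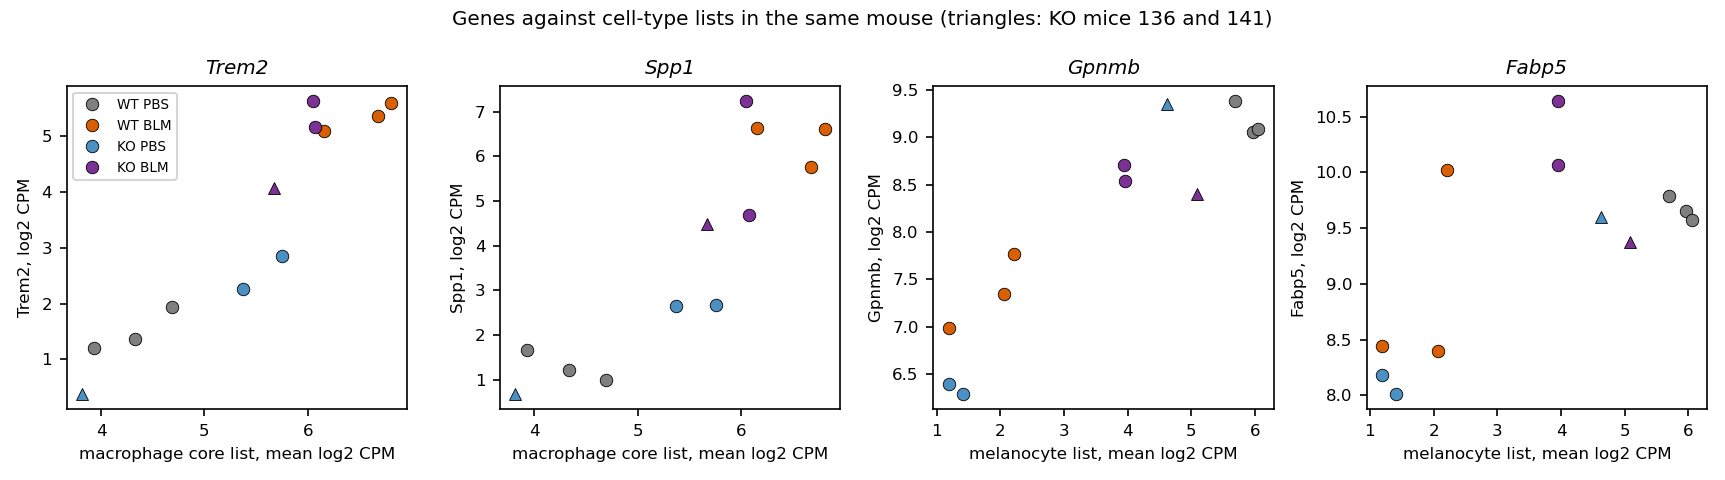
Log2 CPM of Trem2 and Spp1 against the mean log2 CPM of the macrophage core list, and of Gpnmb and Fabp5 against that of the melanocyte list, with 1 point per mouse, coloured by group, and KO mice 136 and 141 as triangles. Mouse 136, at 4.62 on the melanocyte list, sits beside the WT PBS mice for Gpnmb, while the WT BLM mice and KO PBS mice 137 and 139, all at 2.21 or less, sit at the lower left.

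Of Lgals3, Apoe, Cd9 and Arg1, only Cd9 passed the test in WT mice. Lgals3 (chr14:47367751-47386160, plus strand) encodes a galactose-binding lectin of macrophages and epidermis. It was at 528, 505 and 545 CPM in WT PBS and 744, 431 and 839 CPM in WT BLM. Mouse 146 was lowest of all 12 mice, and the log2 fold change was 0.35 ± 0.26 (adjusted p = 0.30). In KO mice it was at 527, 521 and 489 CPM with PBS and at 612, 954 and 1044 CPM with bleomycin. These groups did not overlap, as for 4 of the 10 genes and for 10.8% of all genes in this direction, but the log2 fold change of 0.76 ± 0.26 did not pass (adjusted p = 0.17). The keratinocyte list was likewise highest in KO BLM mouse 144 (mean log2 CPM 10.69, against 9.27 to 9.57 in WT PBS).

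Apoe (chr7:19696109-19699188, minus strand) had the highest CPM of the 10 genes in every mouse. It was at 2953, 4104 and 2660 CPM in WT PBS and at 3078, 3085 and 3729 CPM in WT BLM, and the log2 fold change was 0.03 ± 0.33 (95% interval -0.70 to 0.75). KO PBS mice 136 and 139, at 6913 and 6340 CPM, were higher than all other mice, while mouse 137 was at 2876 CPM. KO BLM mice were at 3520, 4055 and 4188 CPM, with a log2 fold change of -0.46 ± 0.33 (adjusted p = 0.45), and of -0.16 ± 0.38 without mice 136 and 141 (adjusted p = 0.77).

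Cd9 (chr6:125460266-125494791, minus strand) encodes a tetraspanin of many cell types. It was at 421, 394 and 454 CPM in WT PBS and 325, 244 and 318 CPM in WT BLM. The groups did not overlap, and the log2 fold change was -0.52 ± 0.15 (adjusted p = 0.024). The call was lost without WT BLM mouse 146 (-0.39, adjusted p = 0.064) and without WT PBS mice 159 (-0.53, adjusted p = 0.063) or 161 (-0.46, adjusted p = 0.071). In KO mice it was at 396, 341 and 401 CPM with PBS and at 388, 384 and 391 CPM with bleomycin, a log2 fold change of 0.03 ± 0.14 (95% interval -0.29 to 0.35), and 0.06 ± 0.17 without mice 136 and 141 (adjusted p = 0.81).

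Arg1 (chr10:24915221-24927484, minus strand) was at 51.6, 55.9 and 54.4 CPM in WT PBS and at 25.7, 15.6 and 83.0 CPM in WT BLM. As with Fabp5, mouse 147 was above and mice 145 and 146 below all WT PBS mice. In KO PBS it was at 62.3, 30.5 and 29.2 CPM and in KO BLM at 33.7, 48.3 and 101 CPM, and neither genotype gave a call (adjusted p = 0.63 in WT and 0.59 in KO). The log2 fold change in KO mice was 1.32 ± 0.66 without mice 136 and 141 (adjusted p = 0.17). The mitochondrial arginase gene Arg2 was at 15.1 to 19.8 CPM in WT PBS and 6.91 to 9.48 CPM in WT BLM, without overlap and without a call (log2 fold change -1.09 ± 0.53, adjusted p = 0.13).

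Mice 136 and 141, both with high hair lists, can be read as a pair of 1 mouse each, with no test. Spp1 was at 1.53 CPM in mouse 136 and 22.5 CPM in mouse 141, Trem2 at 1.23 and 16.7 CPM, Cd63 at 113 and 173 CPM and Chil3 at 0.233 and 0.826 CPM, all higher with bleomycin. Gpnmb was at 655 and 339 CPM and Fabp5 at 775 and 662 CPM, both lower. With both mice left out, a choice made after seeing the data, 2 KO BLM mice were set against 2 KO PBS mice in the same model. Then 7 of the 10 genes were called higher in KO BLM, where 22.3% of all genes were called in either direction. The log2 fold changes were 3.83 ± 0.72 for Spp1 (adjusted p = 0.012), 2.85 ± 0.31 for Trem2 (adjusted p = 0.0042), 2.50 ± 0.42 for Chil3 (adjusted p = 0.0096) and 1.03 ± 0.20 for Cd63 (adjusted p = 0.013). Gpnmb, Fabp5 and Lgals3 were the others, at 2.28 ± 0.25, 2.29 ± 0.52 and 0.98 ± 0.28 (adjusted p = 0.0042, 0.020 and 0.035). The remaining mice still differed in the growing-hair list (4.48 and 5.72 in KO BLM against -1.15 and 2.45 in KO PBS). They also differed in the melanocyte list (3.96 and 3.95 against 1.42 and 1.19). This fit called 13 of 31 growing-hair genes higher and 0 lower, so bleomycin and hair state cannot be told apart in it. Leaving out only mouse 136 gave 5 of 10 where 14% of genes were called, and only mouse 141 gave 4 of 10 where 6.19% were. With the growing-hair list as a covariate and all mice kept, Spp1, Trem2, Cd63 and Chil3 were called in KO mice (log2 fold change 4.56 ± 0.72, 3.73 ± 0.39, 1.08 ± 0.26 and 2.77 ± 0.54), so 4 of 10 where 8.49% of genes were. In WT mice, in which the list separates the groups, that fit called 0 of 10 and 0.0164% of all genes, and the log2 fold changes were 3.07 ± 1.02 for Spp1, 2.02 ± 0.52 for Trem2 and 3.25 ± 0.99 for Chil3.

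**Figure D4:**
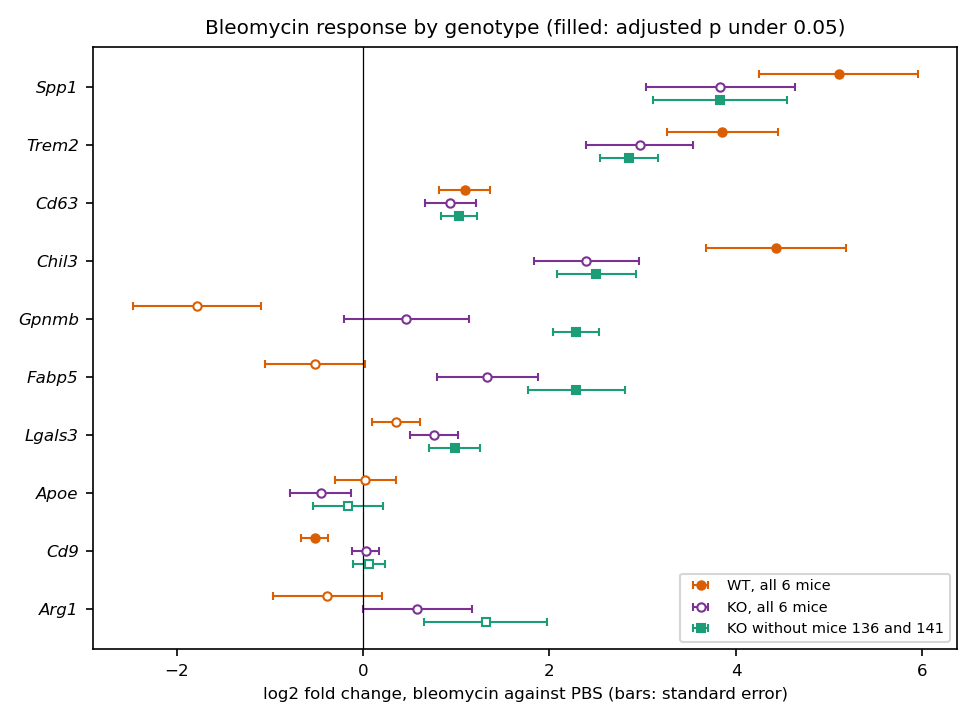
Log2 fold change of each gene with bleomycin against PBS, with standard errors, in WT mice, in all KO mice and in KO mice without 136 and 141, where filled symbols have an adjusted p under 0.05. Spp1, Trem2, Cd63 and Chil3 lie to the right of 0 in all 3 series, at 5.10, 3.86, 1.09 and 4.43 in WT mice, while Gpnmb lies at -1.78 in WT mice and at 2.28 in KO mice without 136 and 141.

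Between genotypes, none of the 10 genes differed by the test. Under bleomycin 0 of 10 were called in KO BLM against WT BLM, where 0.0928% of all genes were, and 2 had an unadjusted p under 0.05, where 16.6% of all genes had. The log2 fold change was -0.33 for Spp1 (95% interval -1.89 to 1.24), -0.27 for Trem2 (-1.43 to 0.90) and -0.02 for Cd63 (-0.62 to 0.58), intervals that leave room for a difference of either sign. The macrophage core list was lower in every KO BLM mouse (5.67 to 6.07) than in every WT BLM mouse (6.16 to 6.81), with 0 of its 20 genes called. Gpnmb and Cd9 were higher in all KO BLM mice than in all WT BLM mice, 2 of 10 where 14.6% of all genes were, by 1.16 ± 0.68 and 0.39 ± 0.14 on the log2 scale (adjusted p = 0.39 and 0.26). Without mouse 136 Gpnmb was called at the same size (1.16, adjusted p = 0.020), 1 of 10 where 6.89% of genes were. Without both mice Gpnmb (1.23) and Chil3 (1.73) were called, 2 of 10 where 4.36% of genes were. The growing-hair list was at 4.48 to 8.84 in KO BLM and at -0.67 to 3.0 in WT BLM. The melanocyte list was at 3.95 to 5.08 and at 1.20 to 2.21. Genotype and hair state therefore cannot be told apart between these groups.

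In PBS-treated skin 0 of 10 were called in KO PBS against WT PBS, where 0.0655% of all genes were, and 2 had an unadjusted p under 0.05, where 20.4% of all genes had. Chil3 was the 1 gene higher in all KO PBS mice than in all WT PBS mice, a separation that 8.62% of all genes showed. Its 45 counts against 4 give a ratio of 11.3 (exact 95% interval 4.13 to 43.3, for counting error only), with an adjusted p of 0.19 in edgeR. DESeq2 called it (log2 fold change 3.49, adjusted p = 0.018), as 1 of 10 where it called 3.83% of genes. Without mouse 136, 3 of 10 were called where 36.7% of all genes were: Chil3 was higher in KO PBS, and Gpnmb (-2.84) and Fabp5 (-1.58) were lower, as were the hair and melanocyte lists in those mice.

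The response of KO mice minus that of WT mice was called for 0 of 10 genes and for 0% of all genes. An unadjusted p under 0.05 was reached by 31.1% of all genes and by 3 of the 10, namely Gpnmb (KO minus WT 2.25 ± 0.96), Fabp5 (1.85 ± 0.76) and Cd9 (0.55 ± 0.20). The difference for Spp1 was -1.27 ± 1.03 and for Trem2 -0.89 ± 0.76. DESeq2 called Cd9, 1 of 10 where it called 18.5% of genes, and without mouse 136 edgeR called Gpnmb (4.0), Fabp5 (2.54) and Cd9 (0.59), 3 of 10 where 39.9% of genes were called. Both contrasts with WT PBS share those 3 mice.

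Genes that work with TREM2 and osteopontin rose in WT mice, where 19.8% of all genes were called higher and 14.1% lower. Of 16 genes of TREM2 signalling, 14 rose in WT BLM and 0 fell, with a median log2 fold change of 2.05. They included Ms4a7, a membrane protein of the family that regulates TREM2 (3.18 ± 0.51, adjusted p = 0.0048), the adaptor gene Tyrobp (2.44 ± 0.53, adjusted p = 0.010) and Lcp2 (2.35 ± 0.47, adjusted p = 0.0081). Ms4a7 and Tyrobp are also in the macrophage core list, so the lists are not separate. In KO mice 0 of 16 were called, where 0.306% of all genes were, and 11 had a positive log2 fold change, with a median of 0.34. Without mice 136 and 141, 2 were called higher in KO BLM, Ms4a7 among them (1.85 ± 0.34, adjusted p = 0.012), and 1 lower, where 13.5% and 8.73% of all genes were. Of 10 osteopontin receptor genes 6 rose in WT mice and 0 fell, with a median of 0.81, among them the integrin genes Itga4 (2.42 ± 0.51, adjusted p = 0.0096), Itga5 (2.38 ± 0.25, adjusted p = 0.0021) and Itga9 (1.53 ± 0.27, adjusted p = 0.0056). None of the 10 was called in KO mice, 8 were positive and the median was 0.36, with Itga5 at 1.28 ± 0.24 (adjusted p = 0.055). Leaving out mice 136 and 141 gave 3 higher and 0 lower, with Itga5 at 1.24 ± 0.18 (adjusted p = 0.0067).

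The difference of responses, KO minus WT, was called for 0 genes of either list with all mice, as for 0% of all genes. When mice 136 and 141 were left out, it was called lower in KO for 12 of the 16 TREM2 signalling genes and 5 of the 10 osteopontin receptor genes, and higher for 0 and 1, where 18.9% of all genes were called lower and 19.7% higher. The macrophage core list gave 18 of 20 lower and 1 higher in that fit. The same fit called 30 of 31 growing-hair genes and 11 of 12 melanocyte genes higher, so that genotype and hair state cannot be told apart in it.

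The counts in WT mice that follow stand beside 19.8% of all genes called higher and 14.1% lower. Of 24 lipid handling genes tested, 9 rose and 2 fell in WT mice, with Msr1, a scavenger receptor, at 2.52 ± 0.73 (adjusted p = 0.026) and Lipa, the lysosomal acid lipase, at 1.94 ± 0.37 (adjusted p = 0.0070). Of 20 lysosome and MITF-TFE genes, 10 rose and 1 (Mitf) fell, with Cd68, also in the macrophage core list, at 1.89 ± 0.47 (adjusted p = 0.016). Of 11 genes of multinucleated, osteoclast-like cells 8 rose and 0 fell, with the metalloproteinase genes Mmp12 at 4.44 ± 1.02 and Mmp9 at 4.10 ± 0.85 (adjusted p = 0.012 and 0.0092). In KO mice 0 genes of these 3 lists were called with all mice, where 0.306% of all genes were. A positive log2 fold change was found for 13 of 24, 18 of 20 and 10 of 11, with Mmp12 at 3.47 ± 0.96 (adjusted p = 0.13). Once mice 136 and 141 were left out, 13.5% of all genes were called higher in KO BLM and 8.73% lower. In that fit 2 lipid handling genes were called higher and 3 lower. Of the other lists, 6 lysosome and MITF-TFE genes were called higher and 1 lower, and 5 osteoclast-like genes higher and 0 lower. Mmp12 and Mmp9 were then at 3.47 ± 0.60 and 2.37 ± 0.54 (adjusted p = 0.010 and 0.020).

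Of 26 alternative activation genes other than Arg1 and Chil3, 8 rose and 1 fell in WT mice, led by the beta-glucan receptor gene Clec7a (3.24 ± 0.54, adjusted p = 0.0049). Of all genes, 19.8% were called higher in WT mice and 14.1% lower. With all KO mice 0 of the 26 were called, where 0.306% of all genes were, and the median was -0.44. Among 27 tested without mice 136 and 141, 2 were called higher, Clec7a among them (1.87 ± 0.30, adjusted p = 0.0089), and 7 lower, with a median of -0.96. In that fit 13.5% of all genes were called higher and 8.73% lower. Of 12 arginine metabolism genes 2 rose and 2 fell in WT mice, with the arginine transporter genes Slc7a1 at -1.98 ± 0.52 and Slc7a2 at 1.33 ± 0.40 (adjusted p = 0.020 and 0.030). Of the 12, 0 were called with all KO mice, and without mice 136 and 141, 7 were called higher and 2 lower, with Slc7a1 at 1.16 ± 0.14 and Slc7a2 at -1.25 ± 0.31 (adjusted p = 0.0042 and 0.024).

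The genes with the most similar pattern over the 12 mice differed from one member to another. For Trem2 they were Slc15a3, Clec4n and Bcl2a1a (Pearson's r = 0.991, 0.990 and 0.988 of log2 CPM). For Spp1 they were Myog, Fam20c and Bex1 (r = 0.984, 0.983 and 0.983), of which Myog encodes a transcription factor of muscle differentiation. Chil3 was nearest to Trac, Gpr55 and Pglyrp1 (r = 0.959, 0.958 and 0.949), Cd63 to Ifngr2, Ephb2 and Kdelr3 (r = 0.987, 0.983 and 0.979) and Gpnmb to Ptk7, Prpf38a and Cct3 (r = 0.986, 0.980 and 0.976). Lgals3 was nearest to Prdx5, Lgals7 and Dexi (r = 0.980, 0.974 and 0.973), where Lgals7 is a galectin of keratinocytes, and Apoe had no gene closer than Ctsf (r = 0.899). Fabp5 was nearest to Ube2q1 (r = 0.974), Cd9 to Papss1 (r = 0.967) and Arg1 to Slc6a19os (r = 0.935). These values describe mice that share a group and a hair state, and they carry no test.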

How the data were processed

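Stranded mRNA libraries of skin from 12 mice were sequenced as read pairs. The deposited values are raw read counts per gene made by the authors, who tested them with DESeq2. Their processing notes name GRCm38.p6 and MultiQC 1.7; the aligner, the counting tool and the use of strand are not given in the sources used here. Here genes were filtered with filterByExpr (at least 10 counts scaled to library size, and 15 in total), scaled by TMM, and 4 group means were fitted with edgeR 4.0.16 in R 4.3.3. Contrasts were adjusted over 18311 genes with a threshold of 0.05, and edgeR served as the main test in place of DESeq2 1.42.0, an alternative. The biological coefficient of variation was 34.9%. Log2 CPM uses a prior count of 2. The steps were tested on simulated data. No label says that mice come from separate litters or cages, so p-values measure the spread between these mice. Every pair of mice in a group differed by more than sampling noise. Levels per kilobase used the principal transcript of GENCODE M21, and promoters came from RefSeq.

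The 10 genes and the lists were chosen with earlier results of these data known. All 10 were reported in every comparison. From each other list the genes named were among the 3 with the largest log2 fold change in WT mice and a mean of at least 1 log2 CPM, and likeness gives the 3 genes nearest by Pearson's r. Paralogs (Chil4, Arg2, Fabp4) were chosen by family. Alternatives were DESeq2, RLE and upper-quartile scaling, no filter, a mean of at least 1 CPM, only the groups compared, covariates and leaving out each mouse.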

Additional observations from a re-analysis of the deposited data

How the results depend on the processing

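Of the 10 genes, 5 were called in WT mice, where 34% of all genes were. DESeq2 called 4, where it called 34.2% of genes, without a verdict on Spp1, for which it gave no adjusted p. The fit on only the 2 WT groups called 6, Gpnmb among them, where it called 44.6% of genes. Leaving out 1 mouse gave 3 to 6. The count was 3 without WT PBS mouse 159 or 161 (14% and 18.1% of all genes called). It was 6 without KO PBS mouse 136, 137 or 139 (45.7%, 34.3% and 32.8%). With the growing-hair, macrophage core or melanocyte list as a covariate 0 were called, where 0.0164%, 0.197% and 0% of all genes were. An unadjusted p under 0.05 was reached by 3, 1 and 2 of the 10. The groups differ in these lists, and the cause was not tested. In KO mice 0 were called (0.306% of all genes), against 3 in DESeq2 (6.14%) and 2 with no filter (0.507%). The fit on only the 2 KO groups called 0 (0%). With a covariate the count was 4 with the hair list (8.49%), 1 with the macrophage list (4.4%) and 4 with the melanocyte list (8.93%). With 1 mouse left out it was 0 to 5, with 5 without 136 (14%) and 4 without 141 (6.19%). Without both it was 7 (22.3%), also 7 in DESeq2 without both (27.7%). In KO PBS against WT PBS the count of 0 (0.0655% of all genes) became 1 in DESeq2 (3.83%). With 1 mouse left out it was 0 to 3, with 3 without 136 (36.7%). Without both it was 4 (40.9%), and 5 in DESeq2 without both (38.1%). In KO BLM against WT BLM the count of 0 (0.0928%) became 0 to 1 with 1 mouse left out, with 1 without 136 (6.89%). Without both it was 2 (4.36%), and 3 in DESeq2 without both (17.3%). DESeq2 with all mice called 0 (3.34%), with 2 at an unadjusted p under 0.05. For the difference of responses the count of 0 (0% of all genes) became 1 in DESeq2 (18.5%). With 1 mouse left out it was 0 to 3, with 3 without 136 (39.9%). Without both it was 2 (38.6%), and 4 in DESeq2 without both (35.5%). With the growing-hair list as a covariate the log2 fold change took the other sign in WT BLM against WT PBS for Fabp5 (0.25), Gpnmb (0.39) and Lgals3 (-0.015), in KO PBS against WT PBS for Cd63 (-0.22), Spp1 (-0.57) and Trem2 (-0.91), in KO BLM against WT BLM for Apoe (-0.11), Cd63 (0.28), Gpnmb (-0.17), Spp1 (0.92) and Trem2 (0.80) and in the difference of responses for Cd63 (0.51), Spp1 (1.49) and Trem2 (1.71). With the macrophage core list as a covariate the log2 fold change took the other sign in WT BLM against WT PBS for Arg1 (0.094), Fabp5 (0.55) and Gpnmb (1.05), in KO PBS against WT PBS for Cd63 (-0.14) and Trem2 (-0.52), in KO BLM against WT BLM for Cd63 (0.21), Spp1 (0.082) and Trem2 (0.45) and in the difference of responses for Cd63 (0.35) and Trem2 (0.97). With the melanocyte list in the model instead (an alternative added once the data had been seen) the log2 fold change took the other sign in WT BLM against WT PBS for Arg1 (0.68), Fabp5 (1.0) and Gpnmb (1.36), in KO BLM against KO PBS for Gpnmb (-0.23), in KO PBS against WT PBS for Arg1 (0.44), Cd63 (-0.52), Fabp5 (0.26), Gpnmb (0.89), Spp1 (-1.77) and Trem2 (-1.88), in KO BLM against WT BLM for Apoe (-0.025), Arg1 (-0.035), Cd63 (0.39), Gpnmb (-0.69), Spp1 (1.27) and Trem2 (1.15) and in the difference of responses for Arg1 (-0.48), Cd63 (0.91), Chil3 (0.34), Fabp5 (-0.15), Gpnmb (-1.59), Spp1 (3.04) and Trem2 (3.03). Without mice 136 and 141 (also added once the data had been seen) the log2 fold change took the other sign in KO BLM against WT BLM for Cd63 (0.24), Spp1 (0.089) and Trem2 (0.063). In DESeq2 without these mice (added likewise) the log2 fold change took the other sign in WT BLM against WT PBS for Apoe (-0.0019) and in KO BLM against WT BLM for Cd63 (0.24), Spp1 (0.091) and Trem2 (0.068). With no filter on low counts the log2 fold change took the other sign in WT BLM against WT PBS for Apoe (-0.015), in KO BLM against KO PBS for Cd9 (-0.000798) and in KO BLM against WT BLM for Cd63 (0.0061). With upper-quartile normalization the log2 fold change took the other sign in KO PBS against WT PBS for Lgals3 (0.012). Leaving out 1 mouse at a time turned the sign in WT BLM against WT PBS for Apoe (-0.10 to 0.16) and Arg1 (-1.39 to 0.012), in KO BLM against KO PBS for Cd9 (-0.042 to 0.073), in KO PBS against WT PBS for Cd63 (-0.029 to 0.30) and Lgals3 (-0.082 to 0.027), in KO BLM against WT BLM for Arg1 (-0.014 to 1.56), Cd63 (-0.23 to 0.27), Spp1 (-1.79 to 0.13) and Trem2 (-0.64 to 0.10) and in the difference of responses for Cd63 (-0.36 to 0.10). RLE normalization turned no sign. Spp1, Trem2 and Chil3 stayed called in WT mice with each mouse left out, at 4.96 to 5.33, 3.70 to 4.12 and 4.22 to 4.75. No paired analysis was possible because every mouse has its own number. With 3 mice a group and 4 counts of Chil3 in WT PBS in all, small differences and the size of the Chil3 fold are not resolved at this depth.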

Other observations

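Genes of cells and signals around these macrophages moved as well. Ly6c2, a marker of inflammatory monocytes, rose in both genotypes (log2 fold change 5.05 ± 0.51, adjusted p = 0.0021 in WT, and 3.45 ± 0.46, adjusted p = 0.031 in KO). The chemokine receptor gene Ccr2 rose in WT mice (2.78 ± 0.55, adjusted p = 0.0078) and stood at 0.50 ± 0.52 in KO mice (adjusted p = 0.60). Of 9 cytokine genes tested that can act on macrophages, 5 rose in WT mice and 0 fell, with 9 of 9 positive. Of all genes, 19.8% were called higher in WT mice and 14.1% lower. In KO mice 0 of the 9 were called, where 0.306% of all genes were, with 7 of 9 positive. Without mice 136 and 141, 3 of 12 cytokine genes tested were called higher and 0 lower, where 13.5% and 8.73% of all genes were. With all mice Il33, an alarmin, was at 2.81 ± 0.51 in WT and 0.75 ± 0.48 in KO mice (adjusted p = 0.0061 and 0.39), and Il1b at 2.19 ± 0.54 and 2.93 ± 0.55 (adjusted p = 0.016 and 0.055). The difference between genotypes was called for no gene with all mice. Without mice 136 and 141, where 38.6% of all genes were called, it was called for Ccr2 (KO minus WT -2.79 ± 0.57, adjusted p = 0.0058), Il33 (-2.23 ± 0.39, adjusted p = 0.0027) and Ly6c2 (-1.74 ± 0.59, adjusted p = 0.043).

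Genes of other tissues in the sample differed between the WT groups too, in which bleomycin and hair growth cannot be told apart. Of all genes, 19.8% were called higher and 14.1% lower in WT mice, and 0.306% were called in KO mice. Of 12 skeletal muscle genes 11 rose in WT mice and 1 was called in KO mice, where the median log2 fold change was -0.35. That gene was Myh3, the embryonic myosin of regenerating muscle, at 7.16 ± 1.18 in WT and 6.99 ± 1.18 in KO mice (adjusted p = 0.0049 and 0.047). Without mice 136 and 141, 1 muscle gene was called higher in KO mice and 3 lower, where 13.5% and 8.73% of all genes were. Of 10 stressed keratinocyte genes 6 rose and 1 fell in WT mice, and 0 were called in KO mice, where 10 of 10 were positive. Krt6b was at 10.42 ± 2.18 in WT (adjusted p = 0.0094) and at 8.50 ± 1.99 in KO mice (adjusted p = 0.096). In KO mice without 136 and 141, 9 of the 10 were called higher. Of 10 T cell genes 8 rose in WT mice, with a median of 1.39, and 0 were called in KO mice, where 10 of 10 were positive with a median of 1.02. Trac was at 2.32 ± 0.38 in WT and 1.37 ± 0.36 in KO mice (adjusted p = 0.0048 and 0.12). The fit without mice 136 and 141 called 3 T cell genes higher in KO mice, and the difference between genotypes was called for 0 of 10.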
